A study of Mus musculus with 9 samples.

Results

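The circadian clock genes of mouse ear dermis were described in 9 RNA sequencing libraries. The 10 genes were the rows of the count table with the symbols Arntl, Npas2, Clock, Per1, Per2, Per3, Cry1, Nr1d1, Nr1d2 and Dbp, out of 52550 genes in all. They were chosen by name, as core clock genes and a clock output gene, to show the state of the clock when each library was taken and any difference between groups. The study asked how imiquimod cream and a herbal decoction change the skin.

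All mice were labelled C57BL/6 (C57BL/6J in the study's methods) with a genotype labelled as wild type, were 8 weeks old and, per the study's methods, male. The VAS+H2O group had vaseline on the ear for 5 days and water by gavage for 10 days. The IMQ+H2O group had imiquimod, a Toll-like receptor agonist that causes psoriasis-like inflammation, in place of vaseline. The IMQ+XYF group had imiquimod and 200 µl of the herbal decoction Xiao-Yin-Fang (XYF), at 23.3 mg/g, in place of water. Each group held 3 libraries. The methods describe RNA from ear sheets of 2 mice, without saying which library or pool came from which mouse. The study's figure captions give n = 3 for each group. Whether each library came from separate mice is therefore not clear. The p-values measure the spread between these libraries, which may be technical. Mice were kept in a light-dark cycle, but the hour at which ears were taken was not given in the sources used here. A different hour of sampling between groups and a change of the clock by treatment therefore cannot be told apart.

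The clock is a feedback loop that runs in nearly every cell. ARNTL (BMAL1) pairs with CLOCK or NPAS2 and switches on the Per and Cry genes, whose proteins then block the pair, while NR1D1 and NR1D2 (REV-ERB alpha and beta) repress Arntl in a second loop. Over the day, Arntl peaks about when Dbp and Nr1d1 are at their lowest, and skin fibroblasts, keratinocytes and hair follicles all hold such clocks.

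Library totals ran from 28756305 to 79836881 counts, and every clock gene had between 334 and 21922 counts in every library. The counting error of a level was below the SD between libraries except for Arntl and Npas2 in IMQ+H2O, where it was 2.88% and 4.80% of the level against an SD of 2.03% and 2.36%. All 10 genes passed the filter on low counts. Levels are given as CPM, counts scaled to library size after TMM normalisation. Fibroblast genes were high in all libraries, with summed levels of 15396 to 26343 CPM in VAS+H2O, 11033 to 18064 CPM in IMQ+H2O and 11129 to 18424 CPM in IMQ+XYF. The tissue was not dermis alone. The 13 keratinocyte genes summed to 4094 to 6788 CPM, 2669 to 4094 CPM and 4372 to 15981 CPM in the same order of groups, with the highest sum in IMQ+XYF library 1, and the cartilage genes are given with the results below.

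Levels of different genes were compared per kilobase of exon. In VAS+H2O, the mean level was highest for Nr1d1 at 96.3 CPM per kb, followed by Per1 at 47.5, Nr1d2 at 27.8 and Dbp at 21.3 CPM per kb. Lower mean levels were found for Per3 at 9.59, Per2 at 8.52, Clock at 6.75, Cry1 at 6.06, Arntl at 5.37 and Npas2 at 3.25 CPM per kb. The VAS+H2O libraries of Nr1d1, Per1 and Nr1d2 did not overlap with those of the next gene down. Nor did those of Dbp, whose lowest library had 17.8 CPM per kb against 11.5 in the highest library of Per3. The ranges of Per3 and Per2, of Per2 and Clock, of Clock and Cry1, and of Clock and Arntl overlapped. In IMQ+H2O, Dbp was at 8.25 CPM per kb, nearer to Per2 at 6.77 than to Nr1d2 at 18.4 CPM per kb.

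The start regions of clock genes can hold elements through which the loop acts. RefSeq windows on GRCm38.p6, from 250 bases before to 50 bases after a gene's start, were found for 9 of the 10 genes (13 windows in all), with none for Per2. Both strands were searched for the E-box CACGTG, bound by the ARNTL pairs, its variant CACGTT (E'-box), the D-box TTANGTAA, bound by DBP, and the RORE, bound by NR1D1 and NR1D2. The matches found in 5 genes follow, with the matched letters in capitals, each read 5′ to 3′ on the gene's own strand, to show where the loop's own elements lie in the genes described here.
Cry1 E-box, chr10:85185100-85185123, minus strand: gccggtggtCACGTGgggtgcatg
Cry1 E'-box, chr10:85185119-85185142, minus strand: cacttcagaAACGTGaggtgccgg
Per1 E-box, chr11:69098774-69098797, plus strand: acccaagtcCACGTGcagggatgt
Nr1d1 E'-box, chr11:98775391-98775414, minus strand: acagatctcAACGTGccggctgct
Per3 D-box, distal, chr4:151044854-151044879, minus strand: acccgcgcgTTATGTAAggtactcgg
Per3 D-box, proximal, chr4:151044807-151044832, minus strand: cgcccgcggTTATGTAAcccccgccg
Arntl RORE, chr7:113207528-113207556, plus strand: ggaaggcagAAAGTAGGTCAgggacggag

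Relative to the RefSeq start of transcription, the Cry1 matches began at -60 and -79 and did not overlap. The Per1 match began at -166, the Nr1d1 match at -28, the Per3 matches at -205 and -158, and the Arntl match at 27. The Per1 start used lies inside the gene's GENCODE span of 69095217 to 69109960, and so does its match. No match was found in the windows of Npas2, Clock, Nr1d2 and Dbp. Of the 13 windows of the clock genes, 2 held the E-box, 2 the E'-box, 1 the D-box and 1 the RORE. Of 32851 windows of 300 bases, 7.15% held the E-box, 4.68% the E'-box, 2.32% the D-box and 0.384% the RORE. A match is a description of the letters, and no binding was measured.

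IMQ+H2O was set against VAS+H2O to see how the clock genes stood in the inflamed ear. Dbp, Nr1d1 and Nr1d2 had the largest fitted differences of the 10, all lower in IMQ+H2O, and all but Clock and Cry1 had lower levels in every IMQ+H2O library. None of the 10 genes passed the study's call rule in edgeR, an adjusted p of at most 0.05 with an absolute log2 fold change of at least 1, which 0.994% of 22430 tested genes passed. At an adjusted p of at most 0.05 with any fold the count was also 0, against 1.37% of all genes. With an unadjusted p under 0.05 there were 6 of 10, all lower in IMQ+H2O, against 20.9% of all genes. In 8 of 10, every IMQ+H2O library was below every VAS+H2O library, as it was in 16.5% of all genes. The median log2 fold change was -0.45 over the 10 genes and -0.02 over all genes. DESeq2, the study's tool, called 1 of the 10 (Dbp), against 3.9% of all genes, and with any fold 3 of the 10 (Dbp, Nr1d1 and Nr1d2), against 7.87% of all genes. In this bulk tissue, fewer cells of a type and less RNA per cell cannot be told apart.

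Dbp, on chromosome 7 (45705088 to 45710203, plus strand, GRCm38), encodes a transcription factor of the PAR bZIP family that carries the rhythm to metabolic genes. Its level was 77.0, 53.3 and 60.5 CPM with vaseline, 23.1, 24.8 and 26.2 CPM in IMQ+H2O, and 18.6, 59.1 and 29.5 CPM in IMQ+XYF. The vaseline and imiquimod groups lay far apart, and the IMQ+XYF libraries spread from below the lowest IMQ+H2O library to within the VAS+H2O range. IMQ+H2O stood at 0.388 times the level of VAS+H2O, a log2 fold change of -1.36 (SE 0.36), with an unadjusted p of 0.00457 and an adjusted p of 0.0943 in edgeR and an adjusted p of 0.00698 in DESeq2. The fitted change stayed between -1.48 and -1.21 when any 1 library was left out. Dbp passed the call rule without IMQ+XYF library 1 (adjusted p = 0.0446 in edgeR) and without IMQ+XYF library 2 (adjusted p = 0.0186), neither of them a library of this comparison. In every other fit that left out 1 library it did not pass, with an adjusted p of 0.118 to 0.245 in edgeR. The exons of Dbp share 539 bases, 18.01% of their length, with Sphk2 on the opposite strand. The use of strand in counting was not stated, so reads there cannot be told apart.

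Nr1d1, on chromosome 11 (98767932 to 98775333, minus strand), had 351, 287 and 251 CPM in VAS+H2O, 162, 155 and 168 CPM in IMQ+H2O, and 139, 249 and 196 CPM in IMQ+XYF. The lowest vaseline library was above every imiquimod library, with IMQ+XYF library 2 just under it. The log2 fold change between IMQ+H2O and VAS+H2O was -0.87 (SE 0.20), with an adjusted p of 0.0731 in edgeR and 0.00514 in DESeq2. Its exons overlap those of Thra, the thyroid hormone receptor alpha gene, on the opposite strand, over 263 bases or 8.55% of its exon length, where the same limit on strand holds. Nr1d2, its paralog on chromosome 14 (18204054 to 18239127, minus strand), had 146, 153 and 152 CPM in VAS+H2O, 106, 98.2 and 95.2 CPM in IMQ+H2O, and 89.6, 136 and 114 CPM in IMQ+XYF. Vaseline libraries of Nr1d2 were the closest together of all 10 genes (SD 0.04 on the log2 scale) and all stood above the other 6 libraries. The log2 fold change between IMQ+H2O and VAS+H2O was -0.59 (SE 0.14), with an adjusted p of 0.0781 in edgeR and 0.0108 in DESeq2.

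**Figure D1:**
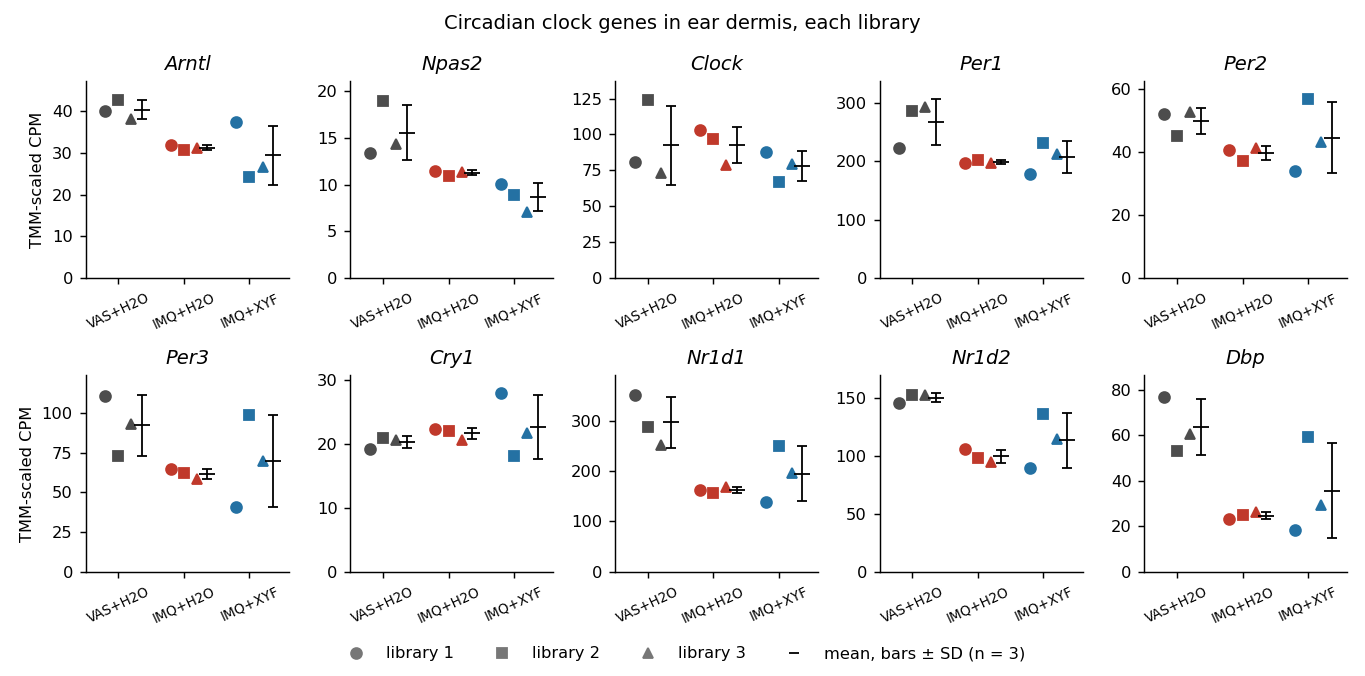
TMM-scaled CPM of the 10 clock genes in each library, 1 panel per gene, with a marker shape per library number and the mean ± SD of each group of 3 as black bars. For Dbp, the IMQ+H2O libraries lie between 23.1 and 26.2 CPM, below all VAS+H2O libraries, while IMQ+XYF reaches from 18.6 to 59.1 CPM.

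The Per genes encode repressors of the ARNTL pairs, and Per1 and Per2 also answer to hormones and growth signals. Per1 (chromosome 11, 69095217 to 69109960, plus strand) had 222, 286 and 294 CPM in VAS+H2O, 198, 202 and 197 CPM in IMQ+H2O, and 179, 232 and 213 CPM in IMQ+XYF. Per2 (chromosome 1, 91415982 to 91459324, minus strand) had 52.1, 45.0 and 52.6 CPM, 40.5, 37.0 and 41.4 CPM, and 34.1, 56.7 and 43.1 CPM in the same order. For both genes the vaseline and imiquimod groups did not overlap, and IMQ+XYF overlapped with each. Per3 (chromosome 4, 151003652 to 151044665, minus strand) had 111, 72.7 and 93.0 CPM in VAS+H2O, 64.7, 61.9 and 58.2 CPM in IMQ+H2O, and 41.0, 98.9 and 69.7 CPM in IMQ+XYF. Its IMQ+H2O libraries were all below those of VAS+H2O, and IMQ+XYF reached below the one and into the other. IMQ+H2O differed from VAS+H2O by a log2 fold change of -0.43 (SE 0.14) for Per1, -0.33 (SE 0.17) for Per2 and -0.58 (SE 0.28) for Per3, with adjusted p of 0.136, 0.303 and 0.278 in edgeR.

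Cry1, on chromosome 10 (85131700 to 85185064, minus strand), encodes the partner of PER in repression and peaks later in the day than the Per genes. It had 19.2, 21.0 and 20.6 CPM in VAS+H2O, 22.3, 22.0 and 20.6 CPM in IMQ+H2O, and 28.0, 18.1 and 21.7 CPM in IMQ+XYF. Here the groups overlapped, the log2 fold change between IMQ+H2O and VAS+H2O was 0.09 (SE 0.15), and the adjusted p was 0.761 in edgeR.

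Among the activators, Arntl (chromosome 7, 113207465 to 113314126, plus strand) had 40.2, 42.8 and 38.2 CPM in VAS+H2O, 32.0, 30.7 and 31.2 CPM in IMQ+H2O, and 37.4, 24.2 and 26.7 CPM in IMQ+XYF. Npas2 (chromosome 1, 39193731 to 39363236, plus strand), which can stand in for Clock, had 13.4, 19.0 and 14.4 CPM, 11.5, 11.0 and 11.4 CPM, and 10.1, 8.89 and 7.10 CPM in the same order. For both genes all 3 vaseline libraries were above the other 6, and Npas2 was the only one of the 10 with its 3 groups fully apart, in the order VAS+H2O, IMQ+H2O, IMQ+XYF. Clock (chromosome 5, 76209868 to 76304792, minus strand) had 80.9, 124 and 73.0 CPM in VAS+H2O, 103, 96.5 and 78.6 CPM in IMQ+H2O, and 87.5, 66.8 and 79.2 CPM in IMQ+XYF, with all groups overlapping. The log2 fold change between IMQ+H2O and VAS+H2O was -0.37 (SE 0.15) for Arntl, -0.46 (SE 0.18) for Npas2 and 0.00038 (SE 0.21) for Clock, with adjusted p of 0.222, 0.186 and 0.9995 in edgeR. Arntl and its repressors Nr1d1 and Nr1d2, which take opposite phases in the daily cycle, were all lower in the 3 IMQ+H2O libraries than in the 3 VAS+H2O libraries.

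**Figure D2:**
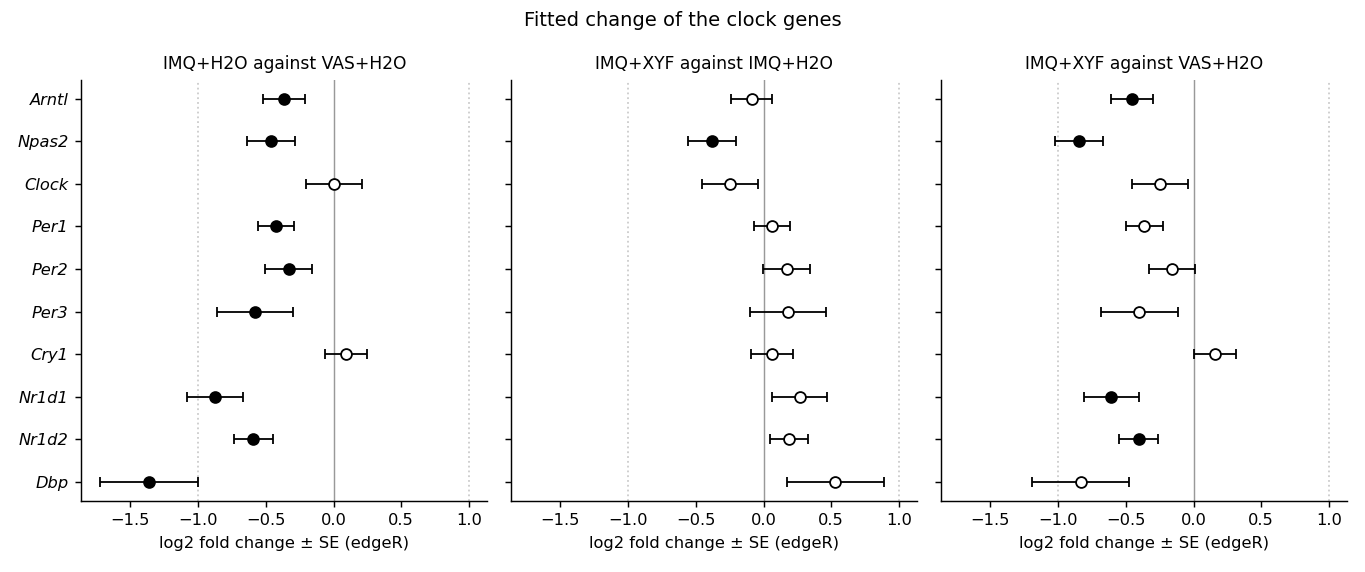
Fitted log2 fold change ± SE (edgeR, 3 libraries per group) of each clock gene in the 3 comparisons, with filled points where the groups did not overlap and dotted lines at the fold limit of the call rule. Dbp lies at -1.36 in IMQ+H2O against VAS+H2O, and no gene passed the call rule in any of the 3 panels.

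Cartilage genes were high and low in much the same libraries as Dbp and Per3. Of 13 listed genes, Matn1 had no count in any library. All 12 tested had an unadjusted p under 0.05 (20.9% of all genes) and lower levels in IMQ+H2O than in VAS+H2O. In edgeR 3 (Col2a1, Col9a3 and Matn3) fell by the call rule (0.994% of all genes), and DESeq2 called all 12 (3.9% of all genes). The list's summed level was 2140 to 4475 CPM in VAS+H2O, 645 to 1084 CPM in IMQ+H2O and 1239 to 3445 CPM in IMQ+XYF, where library 2 was again the highest and library 1 the lowest. The cartilage score, the mean centred log2 level of the 12 genes, was added to the edgeR fit as a covariate after the data were examined. In that fit the log2 fold change between IMQ+H2O and VAS+H2O was 0.27 for Dbp (adjusted p = 0.784), -0.01 for Nr1d1 and -0.12 for Nr1d2, where it had been -1.36, -0.87 and -0.59. It turned direction for Per3, to 0.74, and for Per2, to 0.42, while it went to -0.89 for Arntl and -0.79 for Npas2 and was -0.32 for Per1. No clock gene passed the call rule in that fit. The score itself was 0.45 to 1.30 in VAS+H2O and -1.47 to -0.79 in IMQ+H2O, with no overlap, so for this comparison group and score cannot be told apart.

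Other tissue lists were read in the same way. Hair follicle genes summed to 123 to 369 CPM in VAS+H2O, 13.9 to 38.0 CPM in IMQ+H2O and 19.4 to 34.0 CPM in IMQ+XYF. In IMQ+H2O against VAS+H2O, 7 of 13 were lower by the call rule in edgeR, and DESeq2 called 8. The 9 tested neutrophil genes summed to 128 to 161, 379 to 904 and 234 to 663 CPM. In IMQ+H2O 3 of them rose by the call rule in edgeR, and DESeq2 called 7. Over all genes 0.994% were called by edgeR and 3.9% by DESeq2 in this comparison. Skeletal muscle genes summed to 666 to 3432 CPM, 1517 to 3272 CPM and 160 to 1171 CPM, and none of 12 passed the call rule in edgeR. At an unadjusted p under 0.05 there were 0 of them in IMQ+H2O against VAS+H2O and 9, all lower, in IMQ+XYF against IMQ+H2O, where DESeq2 called 0 and 2. In IMQ+XYF against VAS+H2O there were 5, with 3 called by DESeq2. The part of these tissues in the levels of the clock genes was not tested.

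**Figure D3:**
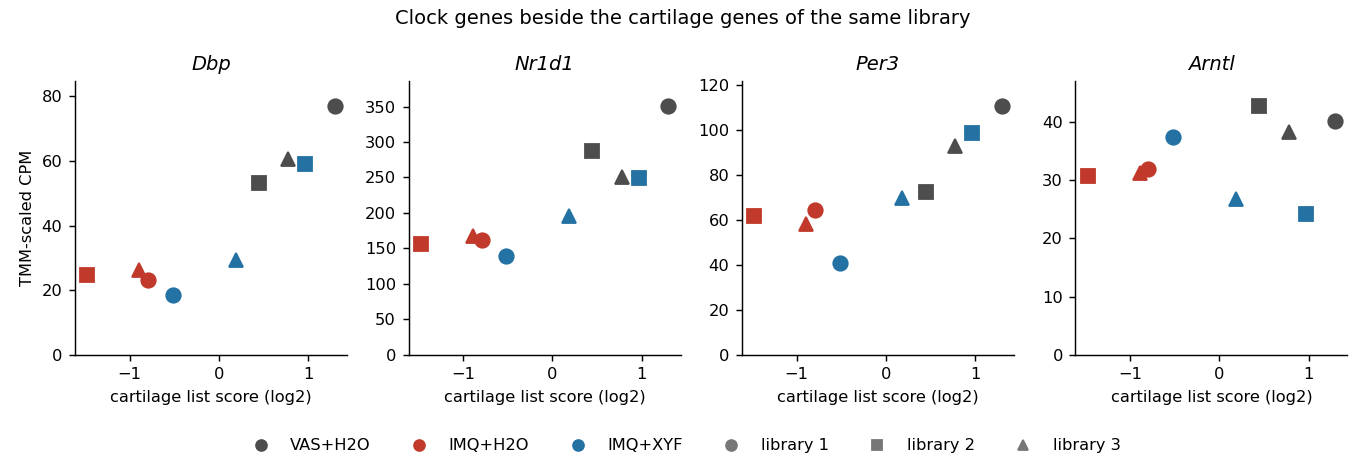
TMM-scaled CPM of Dbp, Nr1d1, Per3 and Arntl against the cartilage list score (mean centred log2 level of 12 genes), with 1 point per library, colour for the group and marker shape for the library number. The points for Dbp rise from IMQ+H2O (23.1 to 26.2 CPM) to VAS+H2O (53.3 to 77.0 CPM) as the score rises, and those of Arntl do not follow it.

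IMQ+XYF was set against IMQ+H2O to see whether the decoction moved the clock genes in the inflamed ear, and the IMQ+H2O libraries serve in both comparisons. None of the 10 genes passed the call rule in edgeR (0.00892% of all genes did), none had an unadjusted p under 0.05 (11.7% of all genes did), and DESeq2 called none (1.1% of all genes). Npas2 was the only gene with all IMQ+XYF libraries below all IMQ+H2O libraries, an arrangement found in 8.74% of all genes, and no clock gene had all IMQ+XYF libraries higher, as 9.22% of all genes did. For Npas2 the log2 fold change was -0.38 (SE 0.18), with an unadjusted p of 0.0615 and an adjusted p of 0.440 in edgeR. For Dbp it was 0.53 (SE 0.36), with an adjusted p of 0.566, and without IMQ+XYF library 2 it was -0.01. For Nr1d1 it was 0.27 (SE 0.20) and for Nr1d2 0.19 (SE 0.14), and the median over the 10 genes was 0.12 against 0.01 over all genes. In the same comparison all 12 cartilage genes were fitted higher in IMQ+XYF, 10 with an unadjusted p under 0.05, none called by edgeR and 7 called by DESeq2. Fitted beside the cartilage score, the log2 fold change turned to -0.71 for Dbp, -0.35 for Nr1d1 and -0.15 for Nr1d2. The score was -1.47 to -0.79 in IMQ+H2O and -0.51 to 0.97 in IMQ+XYF, with no overlap. Here too, group and score cannot be told apart.

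IMQ+XYF against VAS+H2O shares libraries with both others. Again none of the 10 genes passed the call rule (1.2% of all genes did) or an adjusted p of 0.05 with any fold (2.02% of all genes) in edgeR. With an unadjusted p under 0.05 there were 6, all lower in IMQ+XYF (18.3% of all genes), and in 4 of them (Arntl, Npas2, Nr1d1 and Nr1d2) every IMQ+XYF library was below every VAS+H2O library, as in 10.3% of all genes. DESeq2 called none of the 10 (3.42% of all genes) and put 1, Npas2, at an adjusted p of at most 0.05 with any fold (9.13% of all genes). Npas2 had a log2 fold change of -0.84 (SE 0.18), with an adjusted p of 0.0523 in edgeR and 0.00236 in DESeq2. For Dbp the log2 fold change was -0.83 (SE 0.36), with an adjusted p of 0.259, and without IMQ+XYF library 2 it was -1.36 with an adjusted p of 0.0180, past the call rule. Beside the cartilage score it was -0.44 for Dbp and -0.95 for Npas2. The median over the 10 genes was -0.40, against -0.02 over all genes.

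Within groups, the clock genes differed in their spread. In IMQ+H2O, the median SD of log2 levels over the 3 libraries was 0.07 for the 10 genes, against 0.12 for the 10893 genes with a mean of at least 10 CPM, and 9 of the 10 lay below that median. In VAS+H2O the median SD was 0.23 against 0.15, and 4 of the 10 lay below. In IMQ+XYF it was 0.32 against 0.19, with 1 of the 10 below, and Dbp had the largest SD of the 10, 0.84 on the log2 scale.

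Most of the 10 genes shared an order, or its reverse, over the 3 IMQ+XYF libraries. Per1, Per2, Per3, Nr1d1, Nr1d2 and Dbp were all highest in library 2, then library 3, then library 1, an order found in 24% of all genes. Arntl, Clock and Cry1 had exactly the reverse order, found in 21.6% of all genes, and Npas2 had neither, so the order did not divide activators from targets, Cry1 being a target too. In library 1, Dbp stood at 0.498 times the CPM of Arntl, and in library 2 at 2.44 times, with 1.102 times in library 3. The same ratio was 1.92, 1.25 and 1.58 in VAS+H2O and 0.721, 0.807 and 0.839 in IMQ+H2O, so the vaseline and imiquimod groups did not overlap and IMQ+XYF reached beyond both. The ratio of Per3 to Cry1 was 5.78, 3.46 and 4.51 in VAS+H2O, 2.90, 2.82 and 2.82 in IMQ+H2O, and 1.46, 5.47 and 3.21 in IMQ+XYF. These ratios show unequal levels in a library and carry no test. Adipocyte (6 of 7) and keratinocyte genes (8 of 13) had the order 1, 3, 2 and cartilage (11 of 12) and skeletal muscle genes (8 of 12) the order 2, 3, 1 in the same libraries, and their part in the clock genes' order was not tested.

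The limbs of the loop were also summed up. The 6 targets taken were those other than Cry1, which peaks later, and they are the same 6 that shared an order in IMQ+XYF. Their mean centred log2 level minus that of the 3 activators was 0.36, -0.24 and 0.30 in VAS+H2O, -0.34, -0.31 and -0.20 in IMQ+H2O, and -0.58, 0.73 and 0.27 in IMQ+XYF. IMQ+H2O held a narrow range, in which VAS+H2O library 2 also fell, and the IMQ+XYF libraries gave both the lowest and the highest values of all 9. With Cry1 among the targets, added after the data were examined, the values were 0.27, -0.29 and 0.24, then -0.29, -0.26 and -0.17, then -0.44, 0.65 and 0.29. In VAS+H2O library 2 it was the activators that were high, at 0.54 against 0.14 and 0.10 in the other vaseline libraries.

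**Figure D4:**
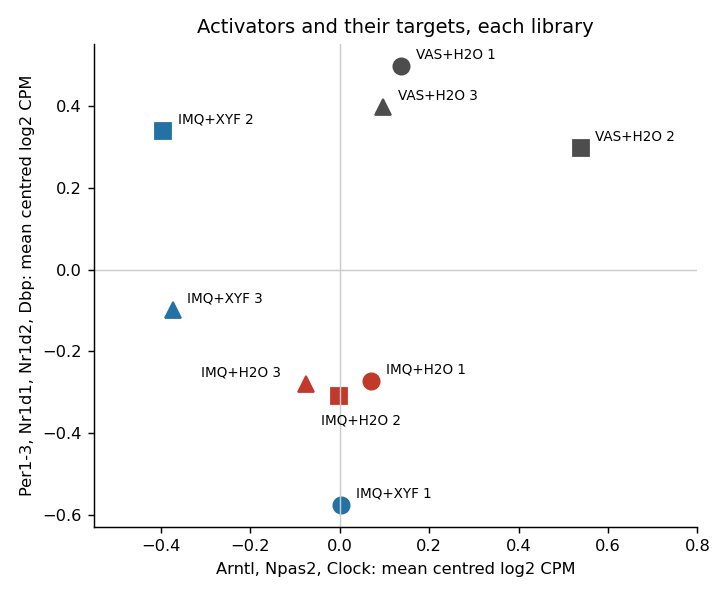
Mean centred log2 CPM of Per1, Per2, Per3, Nr1d1, Nr1d2 and Dbp (vertical) against that of the activators Arntl, Npas2 and Clock (horizontal), with 1 labelled point per library. The IMQ+H2O libraries lie close together at about -0.3 on the vertical axis, while IMQ+XYF libraries 1 and 2 lie at -0.58 and 0.34.

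Other genes of the loop, a list of 15, were counted beside the 10. Between IMQ+H2O and VAS+H2O, 1 fell by the call rule, none rose, and 7 had an unadjusted p under 0.05, of which 6 were lower, with a list median of -0.31. Over all genes 0.994% were called and 20.9% had an unadjusted p under 0.05. The gene that fell was Bhlhe40 (DEC1), a repressor that competes for E-boxes, with 576, 542 and 609 CPM in VAS+H2O, 238, 336 and 277 CPM in IMQ+H2O, and 375, 633 and 481 CPM in IMQ+XYF. The vaseline libraries lay well above those of IMQ+H2O, and IMQ+XYF reached from between them to above the vaseline range. Its log2 fold change in IMQ+H2O was -1.02 (SE 0.20), with an adjusted p of 0.0490 in edgeR. The adjusted p stayed at or under 0.05 in 2 of the 9 fits that left out 1 library (without IMQ+XYF library 1 or 2), ranged from 0.0189 to 0.176 over them, and was 0.504 with the cartilage score as a covariate, at a log2 fold change of -0.56.

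Cry2, the paralog of Cry1, had 133, 146 and 146 CPM in VAS+H2O, 86.3, 89.9 and 83.7 CPM in IMQ+H2O, and 86.1, 131 and 106 CPM in IMQ+XYF. Unlike Cry1, its vaseline libraries were above the other 6, with a log2 fold change of -0.71 (SE 0.14) in IMQ+H2O and an adjusted p of 0.0540 in edgeR. Bhlhe41 (DEC2), paralog of Bhlhe40, had 33.1, 31.3 and 36.6 CPM in VAS+H2O, 21.0, 21.6 and 20.8 CPM in IMQ+H2O, and 15.4, 21.2 and 16.9 CPM in IMQ+XYF. All vaseline libraries of Bhlhe41 were above the others, and its log2 fold change was -0.67 (SE 0.13, adjusted p = 0.0514 in edgeR) in IMQ+H2O and -0.92 (SE 0.13, adjusted p = 0.0228) in IMQ+XYF, each against VAS+H2O. The latter missed the fold limit, and its adjusted p stayed at or under 0.05 in 4 of the 9 fits that left out 1 library (any library of IMQ+H2O, or IMQ+XYF library 2). Rora, an activator at the RORE, had an unadjusted p under 0.05 with a log2 fold change of -0.68 in IMQ+H2O and an adjusted p of 0.130 in edgeR. Arntl2, the paralog of Arntl, had -0.38, and Timeless, which acts in DNA replication too, had 0.73, the only value above 0 among those with an unadjusted p under 0.05.

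Between IMQ+XYF and IMQ+H2O none of the 15 passed the call rule in edgeR or DESeq2, and 3 had an unadjusted p under 0.05 (11.7% of all genes), all higher in IMQ+XYF. These were Bhlhe40 with 0.81 (SE 0.20, adjusted p = 0.361), Arntl2 with 0.47 and Csnk1d, a kinase of PER proteins, with 0.24. For Bhlhe40, DESeq2 gave an adjusted p of 0.0180. Between IMQ+XYF and VAS+H2O none passed the call rule in edgeR or DESeq2, and 5 had an unadjusted p under 0.05 (18.3% of all genes), all lower in IMQ+XYF.

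Clock output genes were a list of 7 with Tef and Hlf, the PAR bZIP relatives of Dbp, and Nfil3, which opposes them at D-boxes. None passed the call rule in edgeR or DESeq2 in any comparison, and 3 had an unadjusted p under 0.05 between IMQ+H2O and VAS+H2O (20.9% of all genes), all lower. They were Wee1, a cell cycle kinase, with a log2 fold change of -0.91 (SE 0.24, adjusted p = 0.0885 in edgeR), Hlf with -0.66 and Klf10 with -0.48. Hlf had 50.7, 47.4 and 40.0 CPM in VAS+H2O, 22.4, 34.5 and 30.6 CPM in IMQ+H2O, and 35.9, 37.8 and 23.3 CPM in IMQ+XYF, so that it did not share the IMQ+XYF order of Dbp. Tef had 199, 160 and 182 CPM, 148, 64.9 and 135 CPM, and 119, 180 and 144 CPM, which was the order of Dbp in IMQ+XYF, with a log2 fold change of -0.64 (SE 0.29) in IMQ+H2O and an adjusted p of 0.243. The list median was -0.64 between IMQ+H2O and VAS+H2O and 0.25 between IMQ+XYF and IMQ+H2O. Between IMQ+XYF and IMQ+H2O 1 of the 7, Klf10, had an unadjusted p under 0.05, at 0.40 (adjusted p = 0.363), against 11.7% of all genes, and between IMQ+XYF and VAS+H2O 2 did, against 18.3%.

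**Figure D5:**
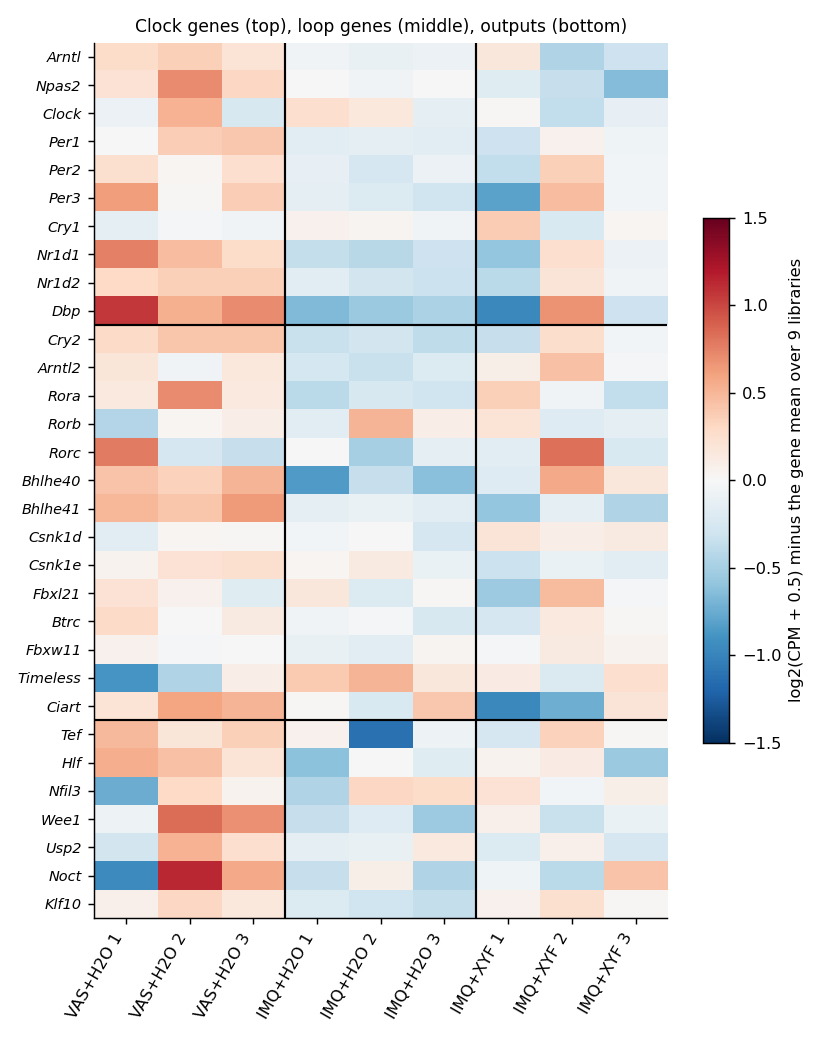
Log2(CPM + 0.5) minus the gene's mean over 9 libraries for the 10 clock genes (top), other loop genes (middle) and 7 output genes (bottom), with a column per library and a colour scale cut at -1.5 and 1.5. Dbp, Nr1d1, Cry2 and Bhlhe40 are above their means in VAS+H2O and below them in IMQ+H2O, and in IMQ+XYF library 2 Dbp is high while Arntl is low.

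Signals that reach the Per genes from outside the loop were counted as well. Of 12 glucocorticoid response genes, 6 were fitted higher and 6 lower in IMQ+H2O than in VAS+H2O, with a median of -0.04. An unadjusted p under 0.05 was found for 6 (20.9% of all genes), of which 4 were higher. DESeq2 called 3 (3.9% of all genes), and 5 with any fold (7.87% of all genes). The gene called by edgeR, named after its values were seen, was Fkbp5, a chaperone partner of the glucocorticoid receptor, which rose from 77.1, 88.8 and 64.9 CPM to 150, 147 and 177 CPM, with a log2 fold change of 1.04 (SE 0.20, adjusted p = 0.0445 in edgeR). It stayed at an adjusted p of 0.05 or lower in 2 of the 9 fits that left out 1 library (without IMQ+XYF library 1 or 2), and the cartilage covariate took its log2 fold change to 0.42 with an adjusted p of 0.556. It was at 132, 79.0 and 101 CPM in IMQ+XYF. Of 12 immediate early genes, none passed the call rule in edgeR (0.994% of all genes) and 2 did in DESeq2 (3.9% of all genes). All 12 were fitted lower in IMQ+H2O, 8 of them with an unadjusted p under 0.05 (20.9% of all genes). The list median was -0.76. Their summed level was 11929 to 16409 CPM in VAS+H2O, 6797 to 8664 CPM in IMQ+H2O and 9509 to 12626 CPM in IMQ+XYF. Between IMQ+XYF and IMQ+H2O, 11 of the 12 were fitted higher, with a median of 0.46. An unadjusted p under 0.05 was found for 6, all higher (11.7% of all genes), and neither edgeR nor DESeq2 called any. Of the 12 glucocorticoid response genes, 2 had an unadjusted p under 0.05 there, both lower. The part of these signals in the levels of Per1 and Per2 was not tested.

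The genes with the pattern most like that of Dbp and Arntl were ranked by Pearson's r of log2 levels over the 9 libraries, among the 13674 genes that averaged 100 or more scaled counts. These are descriptions, since the 9 points share 3 groups and the genes were picked as the highest. For Dbp they were Katnal1 (r = 0.983), Cercam (0.981), Srgap3 (0.978), Thra (0.978) and Evc (0.976), with Spearman's rho of 0.933 to 0.983. Thra had 268, 238 and 241 CPM in VAS+H2O, 166, 142 and 153 CPM in IMQ+H2O, and 135, 251 and 173 CPM in IMQ+XYF. Nr1d1, whose exons overlap those of Thra, ranked 20 for likeness to Dbp (r = 0.969), Nr1d2 ranked 80 (0.944), Per3 173 (0.922) and Per2 194 (0.918), while Cry1 had an r of -0.773. For Arntl they included Samd10 (0.969), Arfip2 (0.952), Eif3h (0.943) and Papln (0.933), and Npas2 ranked 84 (0.834).

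Over all 9 libraries Arntl and Dbp had an r of 0.240, and over the deviations from their group means it was -0.871. Arntl and Cry1 had 0.265 over the libraries and 0.927 over the deviations, and Dbp and Cry1 had -0.773 and -0.970. Over these deviations, libraries with more Arntl had more Cry1 and less Dbp, whereas between the vaseline and imiquimod groups Arntl and Dbp were lower together. The IMQ+XYF libraries, with the widest spread, weigh most in the deviations. Only in that group did the libraries follow this order for Arntl, Cry1 and Dbp alike.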

How the data were processed

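Messenger RNA was sequenced from 9 libraries. The authors deposited whole-number read counts per Ensembl gene, not normalized. The submitters' processing notes name FastQC, STAR 2.5, Cuffnorm, DESeq 1.22.1 and the genome GRCm38, and the study's methods name StringTie and DESeq2. The counting tool and its use of strand were not stated. The labels call the libraries strand-specific. Reads without molecular identifiers are not independent molecules, so counts bound counting error only.

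Groups came from the sample titles. Counts were filtered with filterByExpr, which kept 22430 genes, scaled by TMM and tested with edgeR 4.0.16 (quasi-likelihood F test, R 4.3.3) in 1 fit of all 9 libraries, with p-values adjusted by Benjamini-Hochberg over all tested genes. The SE is the absolute log2 fold change over the square root of F. DESeq2 1.42.0 was an alternative, with adjusted p given as NA left out. Scripts were tested on simulated data. Exon lengths and positions came from GENCODE release M21, promoters from RefSeq (GRCm38.p6).

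All 10 clock genes were named, with the genes of the lists for other loop genes and output genes, and for Arntl and Dbp the 5 genes most alike. Some genes under these rules are not reported here. Genes of further lists were named where the list moved with a result. Members and lists were chosen with earlier results of these data known. Results of the lists are in the report or stand here, though not every count of each list is given. For IMQ+H2O against VAS+H2O, none of the 9 fibroblast, 13 keratinocyte, 12 skeletal muscle, 11 monocyte and macrophage, 7 adipocyte, 7 endothelium, 6 smooth muscle and 8 T cell genes passed the call rule in edgeR, with 3, 3, 0, 7, 1, 3, 4 and 2 at an unadjusted p under 0.05 and 0, 1, 0, 3, 1, 0, 1 and 0 called by DESeq2. In IMQ+XYF against VAS+H2O, edgeR called 1 keratinocyte gene higher (5 by DESeq2), 6 hair follicle genes lower, 3 neutrophil genes higher and 1 T cell gene lower. There DESeq2 called 7 hair follicle, 6 neutrophil, 2 cartilage, 1 glucocorticoid response, 1 monocyte and macrophage and 1 T cell gene. In IMQ+XYF against IMQ+H2O edgeR called no gene of any list, with 9 of 13 keratinocyte genes higher and 9 of 12 skeletal muscle genes lower at an unadjusted p under 0.05, and DESeq2 called 3 and 2 genes of these lists. At the same limit (11.7% of all genes), 4 of 7 endothelium and 4 of 11 monocyte and macrophage genes were lower. Of 6 smooth muscle genes, 3 were lower and 1 was higher. DESeq2 called none of these 3 lists and 1 hair follicle gene.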

Additional observations from a re-analysis of the deposited data

How the results depend on the processing

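Of 480 fitted changes of the clock genes under 16 alternatives, 446 kept direction and call, 5 gained a call, and 29 turned direction. Without the filter Clock was at -0.0056 in the imiquimod comparison. The cartilage score as a covariate was chosen after seeing the data, and with it the changes that turned were, for imiquimod, Clock -0.59, Per2 0.42, Per3 0.74, Cry1 -0.49 and Dbp 0.27; for IMQ+XYF against IMQ+H2O, Arntl 0.24, Clock 0.15, Per1 -0.015, Per2 -0.36, Per3 -0.78, Nr1d1 -0.35, Nr1d2 -0.15 and Dbp -0.71; and for IMQ+XYF against VAS+H2O, Per2 0.059 and Cry1 -0.056. The cause was not tested.

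Leaving out 1 library moved Clock between -0.15 and 0.26 for imiquimod and between -0.40 and 0.018 for IMQ+XYF against VAS+H2O, and Cry1 there between -0.025 and 0.34. For IMQ+XYF against IMQ+H2O the ranges were -0.30 to 0.062 for Arntl, -0.013 to 0.33 for Per2, -0.13 to 0.45 for Per3, -0.12 to 0.23 for Cry1 and -0.014 to 0.84 for Dbp. Clock genes called ranged from 0 to 1 for imiquimod (any fold, 0 to 3) and from 0 to 1 for IMQ+XYF against VAS+H2O (any fold, 0 to 2), and all genes called from 25 to 455, 0 to 4 and 12 to 592 in the 3 comparisons, in the order of the report.

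Clock genes called for imiquimod numbered 0 in the main fit, 1 with DESeq2 and 1 with only the 6 libraries compared (3 and 3 with any fold). For IMQ+XYF against VAS+H2O, 1 had an adjusted p of at most 0.05 with any fold under DESeq2 and 1 under upper-quartile scaling. All genes called were 223, 2 and 270 in the 3 comparisons, 940, 219 and 705 with DESeq2, and 496, 1 and 33 with only the 6 libraries compared. Upper-quartile scaling gave 0 for IMQ+XYF against IMQ+H2O, and the cartilage score gave 234 there and 176 against VAS+H2O.

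With the replicate block, 86, 0 and 54 genes were called and no clock gene. Same-numbered libraries deviated together in 1 of 9 pairs (r from -0.18 to 0.12, with a limit of 0.1). Differently numbered pairs had r from -0.16 to 0.28. Whether same-numbered libraries share mice or a batch cannot be decided from these values, since differently numbered pairs reached as high. For Arntl and Npas2 in IMQ+H2O, counting error exceeded the SD between libraries, which was 2.03% and 2.36% of the level. With 3 libraries per group, 1 library decided several values, as given in the report. Outlying libraries could not be tested in groups of 3.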
